A study of Mus musculus with 24 samples.

Results

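Silenced neuron cultures of Npas4 knockout (KO) mice were compared with silenced cultures of their wild-type (WT) littermates, to see whether loss of Npas4 alters messenger RNA in neurons at rest. All arrays labelled with 0 h of KCl were taken, which gave 8 of the 24 arrays of the series, 4 KO and 4 WT. There were 2 KO and 2 WT arrays from cultures derived from the medial ganglionic eminence (MGE) and 2 KO and 2 WT arrays from cultures derived from the cortex (CTX). All cultures came from embryonic day 14 mice on a C57Bl/6 background and were silenced overnight with tetrodotoxin (TTX) and AP-5. The resting cultures received no raised KCl, whereas the other 16 arrays came from cultures depolarized with 55 mM KCl for 1 or 6 h. The labels number the arrays of each group as repeats 1 and 2 and do not say whether these were separate litters or cultures, so the p-values below measure only the spread between these arrays.

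Npas4 belongs to the bHLH-PAS group of transcription factors and binds DNA together with a partner, Arnt or Arnt2. Its gene is silent or nearly so in quiet neurons and is switched on by calcium entry when they are depolarized, and Npas4 then raises genes that adjust the synapses of excitatory and inhibitory neurons. TTX blocks voltage-gated sodium channels and AP-5 blocks NMDA-type glutamate receptors, so together they remove the spikes and the glutamate-driven calcium entry that keep such genes on.

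The stretch of the Npas4 promoter below is shown because it belongs to the deleted gene and carries the motif through which calcium signals reach many activity-regulated genes. It is RefSeq sequence of GRCm38.p6 at chr19:4990092-4990191 on the minus strand, upstream of the start site. Capitals mark TGACG, the core of the cyclic AMP response element, in either orientation, of which the promoter window of 300 bases holds 2.
Npas4: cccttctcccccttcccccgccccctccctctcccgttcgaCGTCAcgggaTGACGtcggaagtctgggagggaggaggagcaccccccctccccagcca
The same core lies in 20.8% of 32851 promoter windows of that length. The full element TGACGTCA has 0 matches in the Npas4 window and occurs in 1.79% of windows, all searched on both strands.

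The cultures matched their labelled origin. Neurod6, a transcription factor of cortical excitatory neurons, had a log2 intensity of 3.44 and 3.69 in MGE KO arrays and 3.59 and 3.87 in MGE WT arrays. In CTX cultures it had 12.21 and 12.38 in KO arrays and 12.30 and 12.38 in WT arrays. Lhx6, a transcription factor of MGE-derived interneurons, was between 12.79 and 13.08 in the 4 MGE arrays and between 9.54 and 10.00 in the 4 CTX arrays. The CTX cultures thus also held interneuron transcripts, with Gad1, which makes GABA, at 10.85 to 10.93 in KO arrays and 10.48 to 11.03 in WT arrays. In whole cultures such as these, fewer cells of a type and less RNA per cell cannot be told apart.

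The MGE WT repeat 2 array stood apart from the other silenced arrays of its cell type. It differed by more than 2-fold from MGE WT repeat 1 at 1507 of 12378 genes, whereas MGE KO repeat 1 and MGE WT repeat 1 differed that much at 10 genes. In CTX cultures the KO and WT arrays differed by more than 2-fold at 21 genes in repeat 1 and 40 genes in repeat 2, against 162 genes between the KO repeats and 116 genes between the WT repeats. The 2 genotypes of one repeat were thus closer to each other than the 2 repeats of one genotype in CTX, and so were MGE KO and WT of repeat 1. Xist, the RNA that silences one X chromosome in female cells, was 8.25 in MGE WT repeat 2 and between 11.57 and 12.51 in the other 7 silenced arrays. Counts and the MGE values named below are therefore also given without that array where it moves them, apart from some shares and the counts of genes free of overlap.

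**Figure D1:**
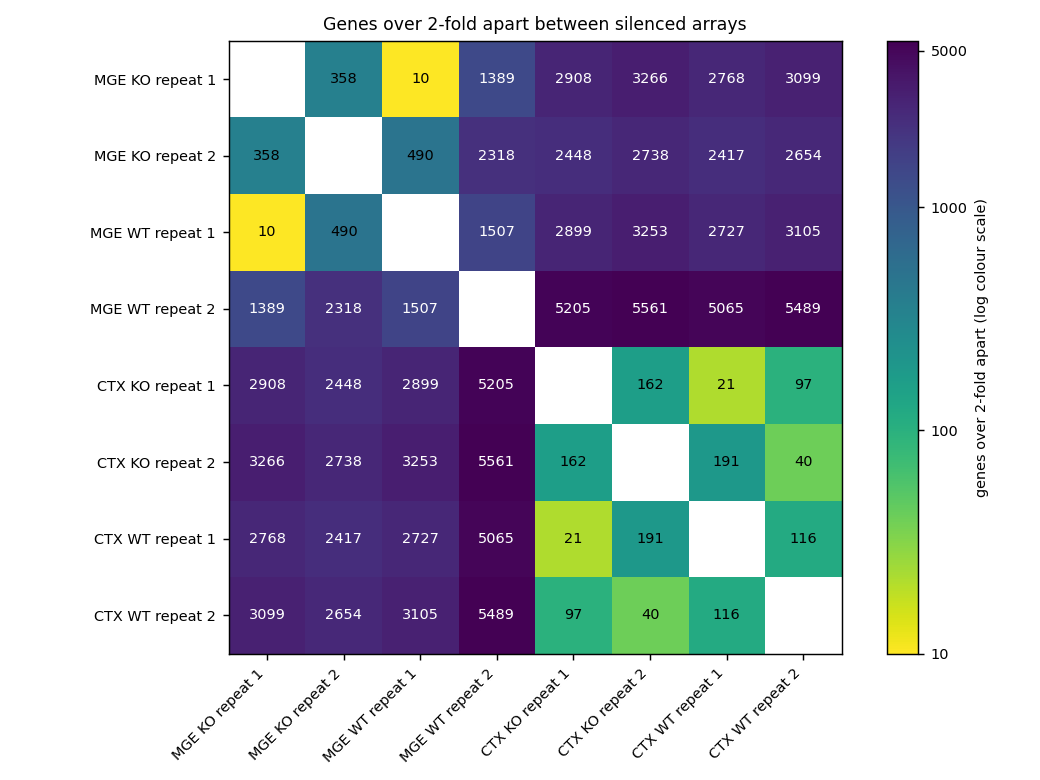
Number of genes, of 12378 tested, that differed by more than 2-fold between each pair of the 8 silenced arrays, with rows and columns giving culture, genotype and repeat and colour on a log scale. MGE KO and WT of repeat 1 differ at 10 genes and CTX KO and WT of repeat 1 at 21, while MGE WT repeat 2 differs from every other array at 1389 or more.

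Cell type carried 80.9% of the sum of squares over the 8 arrays and all genes, and genotype carried 3.48%. The interaction of cell type with genotype carried 3.03%. Repeat carried 4.17% within MGE and 2.06% within CTX, so the share of genotype lay between those of the repeats. The MGE WT repeat 2 array enters the shares of genotype, interaction and MGE repeat alike. The shares were not computed without it, so they do not give the size of a genotype effect. The part of the MGE repeat difference that differed between KO and WT carried 5.85%, and the same part in CTX carried 0.561%.

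Npas4 itself was at a low level in silenced cultures of both genotypes. Its log2 intensity was 5.67 and 5.35 in MGE KO arrays, against 5.70 and 5.84 in MGE WT arrays. In CTX cultures it was 5.82 and 5.78 in KO arrays and 5.80 and 5.94 in WT arrays. These values lay at the 31.5 to 39.4 percentile of all probe sets of their array, below every array's median, and the genotypes overlapped in CTX. The KO minus WT difference was -0.16 ± 0.10 (log2, SE, n = 4 each), and limma's test gave an unadjusted p of 0.161 and an adjusted p of 0.666. The resting level of Npas4 thus separated the genotypes narrowly in MGE and not in CTX, so it could not serve as a check of the labels.

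The depolarized arrays gave that check. After 1 h of KCl, Npas4 was 7.35 and 7.00 in MGE KO arrays, against 12.04 and 11.20 in MGE WT arrays. In CTX cultures at 1 h it was 6.80 and 6.85 in KO arrays and 12.03 and 11.77 in WT arrays. The KO minus WT difference of Npas4 at 1 h was -4.76 ± 0.22 (log2, adjusted p 9.1e-04 by limma), and it was the 1 gene of 12378 called (0.00808%). At 6 h it was 7.07 and 6.80 in MGE KO arrays and 9.32 and 8.59 in MGE WT arrays. CTX arrays at 6 h had 7.76 and 7.82 in KO and 11.73 and 11.84 in WT, so KO and WT arrays were separate in both cell types at both times. The position of this probe set relative to the deletion is not given in the sources used here.

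**Figure D2:**
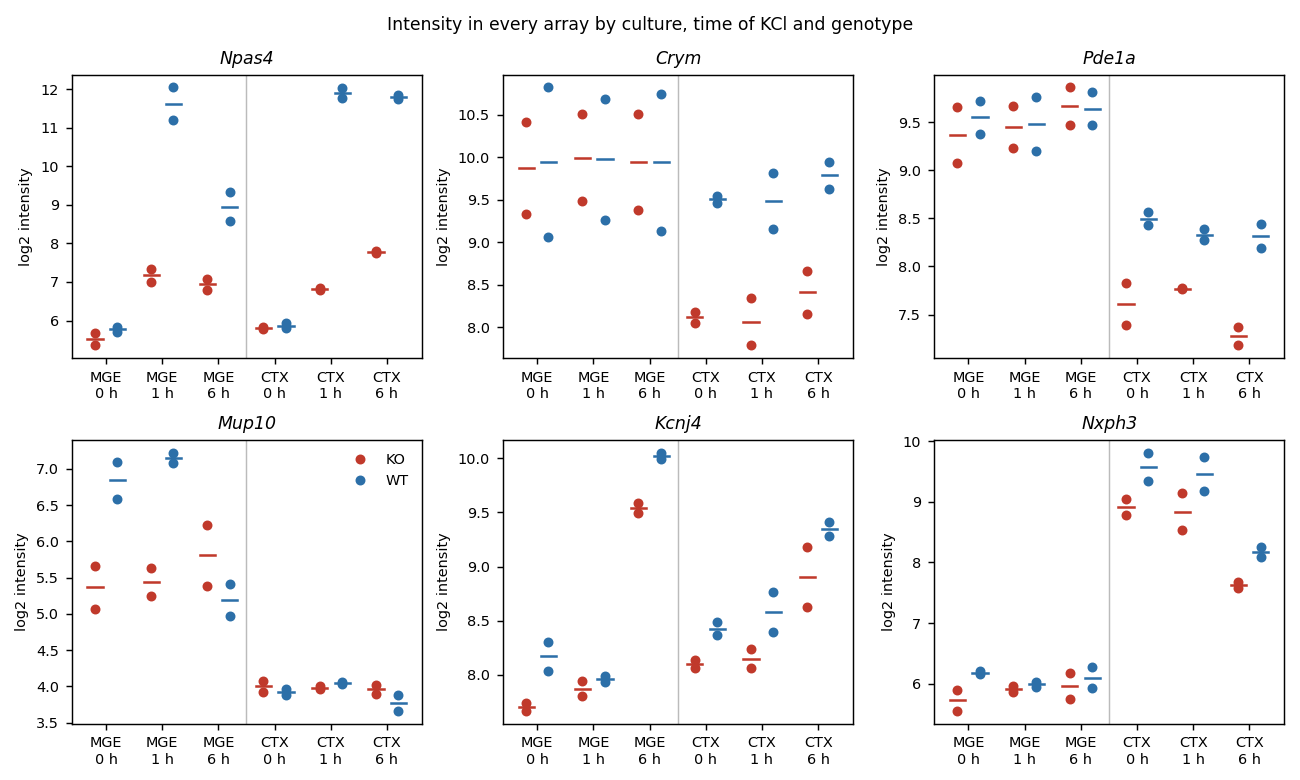
Log2 intensity of 6 genes in all 24 arrays, by culture (MGE, CTX) and hours of KCl, with KO in red left of WT in blue, a point for each array and a bar for the mean of 2. Npas4 is between 5.35 and 5.94 in all silenced arrays and separates the genotypes at 1 and 6 h, while Crym and Pde1a are lower in KO arrays of CTX at every time.

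No gene was called different between silenced KO and WT cultures. With cell type as covariate, limma called 0 of 12378 genes (0%) at an adjusted p under 0.05, and the lowest adjusted p was 0.666. At an unadjusted p under 0.05 there were 152 genes (1.23%), of which 46 were higher and 106 lower in KO. Without MGE WT repeat 2 the counts were 0 genes called and 155 genes (1.25%) at an unadjusted p under 0.05. Within MGE limma called 0 genes, with 581 (4.69%) at an unadjusted p under 0.05, or 175 (1.41%) without MGE WT repeat 2, and within CTX it called 0, with 33 (0.267%). The difference between the MGE and CTX effects had 0 genes called and 116 (0.937%) at an unadjusted p under 0.05, and 0 and 130 (1.05%) without that array.

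The sizes that the 8 arrays could bound were moderate. The median KO minus WT difference over all genes was -0.01, the median absolute difference 0.14 and the median SE 0.14 (log2). Without MGE WT repeat 2 the median absolute difference was 0.07. For 11133 of 12378 genes (89.9%) the 95% confidence interval of the difference lay within a 2-fold change in either direction. Without MGE WT repeat 2 this held for 96.7% of genes. For the CTX difference it held for 86.2% of genes and for the MGE difference, with MGE WT repeat 2 included, for 68.9%. These shared a spread over all 8 silenced arrays, with a median SE of 0.19 for each. The MGE arrays thus also set the width of the CTX intervals. The median absolute difference was 0.07 in CTX and 0.25 in MGE, or 0.12 in MGE without MGE WT repeat 2.

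KO and WT arrays of both cell types were free of overlap in the same direction at 311 genes (2.51%) with KO above WT and at 438 genes (3.54%) with KO below WT. The same counts were 649 (5.24%) and 671 (5.42%) at 1 h, and 334 (2.7%) and 549 (4.44%) at 6 h. The resting arrays thus had fewer separated genes than the arrays at 1 h.

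There were 9 genes with a resting difference over 2-fold, all higher in KO, and 0 of them were called. For 8 of them the MGE WT repeat 2 array was the low one. Peg10, a paternally expressed imprinted gene, had 9.41 and 10.81 in MGE KO arrays, against 9.05 and 6.69 in MGE WT arrays. In CTX it had 9.27 and 8.97 in KO arrays and 9.00 and 8.88 in WT arrays, and its difference of 1.21 ± 0.65 was 0.53 without MGE WT repeat 2. Tet2, which oxidizes methylated cytosine, had a difference of 1.05 ± 0.76, and 0.19 without that array. The other 6 were Col4a5, Yes1, Bpnt1, Golph3, Hectd2 and Cpne1, with differences of 1.00 to 1.07, and 0.25 to 0.47 without it. The ninth gene was Ttr, a thyroid hormone carrier made by the choroid plexus, which had 10.51 and 6.17 in CTX KO arrays and 5.97 and 6.24 in CTX WT arrays. Its resting difference came from 1 KO array, and in CTX it differed by 1.48 at 1 h and 1.71 at 6 h. In CTX alone 6 genes (0.0485%) differed by more than 2-fold at rest, 4 higher and 2 lower in KO, and 0 were called. The 4 higher were Ttr, Zic1, at 1.54 ± 0.91, Ptgds and Tcf7l2. CTX KO repeat 1 was the highest CTX array for each of them. Of the other choroid plexus markers tested, Folr1, a folate receptor, had 6.60 and 5.86 in CTX KO arrays and 6.17 and 6.30 in CTX WT arrays. Sostdc1, a secreted signalling antagonist, had 8.23 and 8.72 in CTX KO arrays and 7.99 and 8.93 in CTX WT arrays, so the array with high Ttr was the highest of the 4 for Folr1 and not for Sostdc1.

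The genes with the lowest unadjusted p among those lower in KO had small differences of the same sign in both cell types. The fit holds the difference equal in MGE and CTX, so ranking by its p favours such genes. Kcnj4, an inward rectifier potassium channel, had 7.74 and 7.66 in MGE KO arrays, against 8.03 and 8.31 in MGE WT arrays. CTX arrays had 8.06 and 8.13 in KO arrays and 8.36 and 8.48 in WT arrays. All 4 KO arrays were thus below the WT arrays of their cell type, and the difference was -0.40 ± 0.09 (unadjusted p 0.00355, adjusted p 0.666).

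Nxph3, a secreted ligand of neurexins at synapses, had 5.89 and 5.55 in MGE KO arrays, against 6.16 and 6.20 in MGE WT arrays. In CTX, where it was far more abundant, it had 9.04 and 8.77 in KO arrays and 9.81 and 9.35 in WT arrays. The groups did not overlap in either cell type, and the difference was -0.56 ± 0.14. Ppargc1b, a coactivator of mitochondrial genes, had a difference of -0.50 ± 0.12, and Ascl2, a basic helix-loop-helix factor, one of -0.35 ± 0.09. Ascl2 exceeded the array median only in the silenced MGE WT arrays, so it was tested only because it was high there. The others of this set were Gab3, an adaptor protein, at -0.45, Ccdc87 at -0.44, Adamts5, an aggrecan-cleaving protease, at -0.35, Abcd2, a peroxisomal fatty acid transporter, at -0.33, Cd36, a fatty acid receptor, at -0.32, and Apoa1, a lipoprotein component, at -0.30. All 10 had KO below WT without overlap in both cell types, against 3.54% of all genes, but they were ranked on the same arrays, so this is a description.

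Among the 10 genes of lowest p that were higher in KO, 9 had KO above WT without overlap in both cell types. Emx2, a homeobox factor that patterns the cortex, had 5.99 and 6.25 in MGE KO arrays, against 5.89 and 5.56 in MGE WT arrays. CTX arrays had 7.89 and 8.14 in KO arrays and 7.37 and 7.67 in WT arrays, and the difference was 0.44 ± 0.13. Ano1, a calcium-activated chloride channel, differed by 0.50 ± 0.14, Plagl1, an imprinted zinc finger factor, by 0.28 ± 0.08, and Pwwp3b by 0.59 ± 0.19. The remaining ones were Masp2, a complement protease, at 0.52, Slc40a1, the iron exporter ferroportin, at 0.45, Nqo1, a quinone reductase, at 0.44, Erbin, a scaffold protein, at 0.42, Zbtb8a at 0.39 and Heatr5a at 0.36. With all probe sets of a gene averaged, Erbin came to 0.07 and Heatr5a to 0.15, and among the lower genes Adamts5 came to -0.12 and Abcd2 to -0.14.

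The arrays at 1 and 6 h are other arrays, though litters or cultures may be shared. Of the 10 genes higher in KO at rest, 10 had the same sign at 1 h and 9 at 6 h, with 4 and 0 at an unadjusted p under 0.05. Of the 10 lower ones, 9 had the same sign at each time, with 4 at an unadjusted p under 0.05 at each. Over all genes, 81.9% of those higher in KO at rest were higher at 1 h and 68.4% at 6 h, and 89.6% of those lower at rest were lower at 1 h and 77.2% at 6 h. An unadjusted p under 0.05 was found for 7.35% of all genes at 1 h and 5.67% at 6 h. Keeping the resting sign was thus common among genes at large. Emx2 was 0.55 higher in KO at 1 h and 0.39 higher at 6 h, values close to the resting difference of 0.44. Kcnj4 differed by -0.26 at 1 h and -0.46 at 6 h, and Ppargc1b by -0.36 and -0.52. Adamts5 differed by -0.34 at 1 h and by -0.91 at 6 h, where a fit over all 24 arrays called it (adjusted p 0.00376). That fit also called Ascl2 at 6 h, at -0.44 (adjusted p 0.0367), though it had differed by 0.06 at 1 h. At 6 h Ascl2 lay below the array median in every array.

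**Figure D3:**
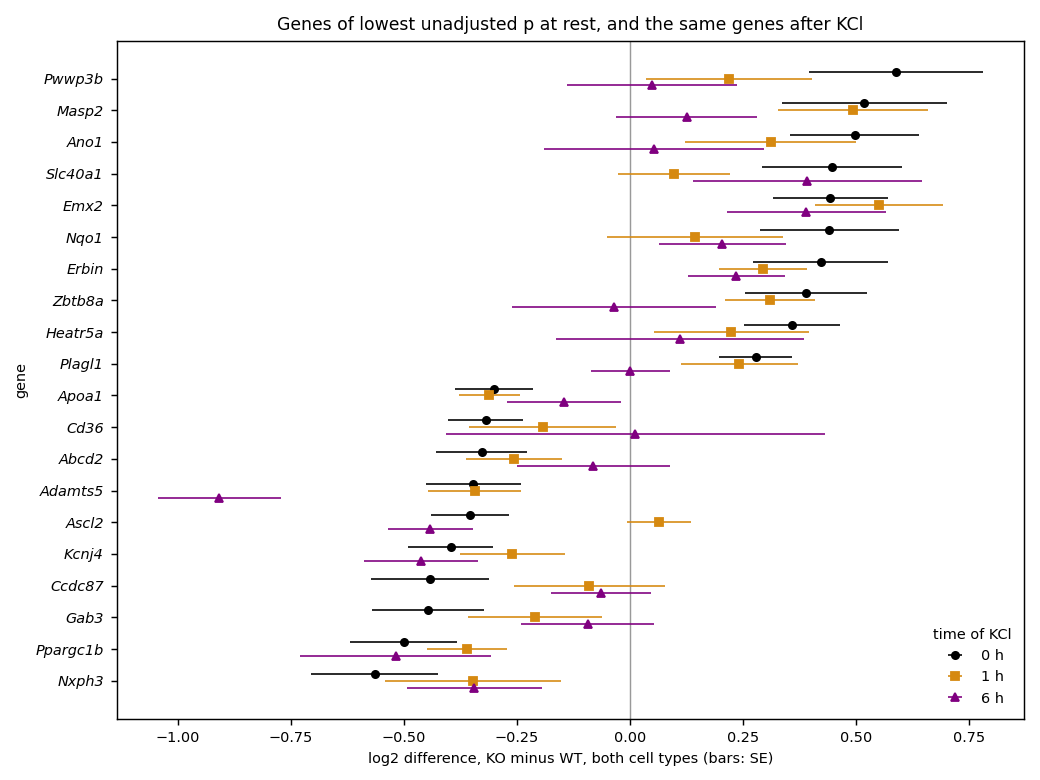
KO minus WT difference (log2, with SE bars) at 0, 1 and 6 h of KCl, both cell types, for the 20 genes of lowest unadjusted p in silenced cultures, 10 higher and 10 lower in KO. Resting differences lie between 0.28 and 0.59 in size, most genes keep their sign at 1 and 6 h, and Adamts5 reaches -0.91 at 6 h.

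In CTX cultures the largest difference below 0 was that of Crym, which encodes mu-crystallin, a thyroid hormone binding protein. It and Pde1a, a calcium-activated phosphodiesterase, are also given because one alternative fit called them, and Crym was singled out after its values were seen. Crym had 8.05 and 8.18 in CTX KO arrays, against 9.46 and 9.54 in CTX WT arrays. At 1 h it had 7.78 and 8.35 in CTX KO arrays and 9.16 and 9.82 in CTX WT arrays, and at 6 h 8.16 and 8.66 in KO and 9.63 and 9.95 in WT. The CTX groups did not overlap at any of the 3 times, a separation that 25% of all genes showed in CTX at rest, 25.6% at 1 h and 18.9% at 6 h. The resting difference was -1.39 ± 0.59, with an unadjusted p of 0.0555 and no call after adjustment. The MGE arrays, whose Crym values spread more, also entered that SE.

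Crym had no such pattern in MGE, where it had 9.33 and 10.41 in KO arrays and 9.06 and 10.82 in WT arrays, and the difference between the cell types was not called (adjusted p 0.787). Pde1a had 7.83 and 7.40 in CTX KO arrays, against 8.57 and 8.43 in CTX WT arrays. The resting difference was -0.88 ± 0.25, and in CTX at 1 and 6 h it was -0.56 and -1.04. In MGE, Pde1a overlapped between the genotypes at rest, with 9.65 and 9.08 in KO arrays and 9.72 and 9.38 in WT arrays. A fit over all 24 arrays with the repeat number as a block called both genes in CTX, with an adjusted p of 0.0352 for Crym and 0.0238 for Pde1a. The repeat numbers paired the CTX arrays by the correlation check described under processing, but the 8 silenced arrays alone called neither gene with or without the block. Fits of the CTX arrays of all times alone, with and without the block, also called neither gene.

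Other CTX values concerned Dcn, a proteoglycan of meningeal fibroblasts, with 7.55 and 8.95 in KO arrays and 9.35 and 9.60 in WT arrays. The mean log2 intensity of 10 vascular and meningeal markers, Dcn among them, was 6.64 and 8.17 in those KO arrays and 6.94 and 7.88 in those WT arrays, and their part in its value was not tested. Gem, a small GTPase that inhibits calcium channels, had 4.16 and 3.92 in CTX KO arrays and 4.49 and 5.13 in CTX WT arrays. Baz1a, a chromatin remodelling subunit, differed by 0.59 ± 0.19 and Pbld2 by 0.33 ± 0.12, both higher in KO. None of these was called in CTX.

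In MGE cultures Mup10, a major urinary protein gene, was one of the 2 genes of lowest unadjusted p among those lower in KO. Mup10 exceeded the array median only in MGE WT arrays at 0 and 1 h, so it was tested through those arrays alone. It had 5.67 and 5.07 in MGE KO arrays, against 7.10 and 6.59 in MGE WT arrays, a difference of -1.47 ± 0.25 (adjusted p 0.406) that was -1.72 without MGE WT repeat 2. At 1 h it had 5.25 and 5.64 in KO arrays and 7.22 and 7.08 in WT arrays, but at 6 h it had 5.39 and 6.23 in KO arrays and 4.98 and 5.41 in WT arrays. The gap at 0 and 1 h was thus absent at 6 h, and the CTX arrays lay between 3.66 and 4.08 at all times. Zfp957, a zinc finger gene, had 6.15 and 5.89 in MGE KO arrays and 6.94 and 6.73 in MGE WT arrays, a difference of -0.81, or -0.92 without that array.

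Among genes higher in MGE KO arrays, Ppp4r3a, a regulatory subunit of protein phosphatase 4, had 7.05 and 7.48 in KO and 6.23 and 5.62 in WT. H2-M3, a nonclassical class I antigen-presenting molecule, had 7.24 and 7.09 in KO and 6.47 and 6.58 in WT. Without MGE WT repeat 2 the difference in MGE was 1.04 for Ppp4r3a, against 1.34 with it, and 0.69 for H2-M3, against 0.64. None was called, and 39% of all genes were free of overlap in MGE at rest, 45.3% at 1 h and 43% at 6 h. For the interaction, Zfp957, H2-M3, Hk3, a hexokinase, and Mad2l1, a spindle checkpoint protein, had the lowest p, with differences between the MGE and CTX effects of -1.04, 0.76, -0.74 and 1.23 and an adjusted p of 0.787. Without MGE WT repeat 2 they were -1.15, 0.81, -0.69 and 0.93.

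Activity-regulated genes were described as lists, since silenced KO neurons lack a factor of that program. Of 20 rapid response genes tested, 0 were called, the median difference was 0.05 against -0.01 over all genes, and 12 were higher in KO. Fos had 7.52 and 8.24 in MGE KO arrays, against 7.46 and 6.58 in MGE WT arrays. In CTX it had 8.82 and 7.66 in KO arrays and 8.49 and 8.31 in WT arrays, so the genotypes overlapped. Nr4a1, an orphan nuclear receptor, differed by -0.01 ± 0.13, Arc, a regulator of glutamate receptor trafficking, by 0.04 ± 0.15, Fosb by 0.05 ± 0.12 and Egr1 by 0.19 ± 0.14.

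Of 20 late response genes, 0 were called and the median difference was 0.03. Bdnf, a neurotrophin, had 5.67 and 5.76 in MGE KO arrays and 5.71 and 6.10 in MGE WT arrays. CTX arrays had 7.42 and 6.34 in KO arrays and 7.74 and 6.79 in WT arrays, and the difference was -0.29 ± 0.29. In CTX, where the numbers paired the arrays, KO was below WT in both repeats, though the genotypes overlapped. The share of all genes with that pattern was not counted. Bdnf differed by 0.21 at 1 h and by -0.56 at 6 h. Nptx2, a secreted protein that clusters glutamate receptors, was likewise lower in KO in both CTX repeats and differed by -0.22 ± 0.29, Homer1, a postsynaptic scaffold, by 0.22 ± 0.18, and Plk2, a kinase of synaptic scaling, by 0.56 ± 0.43. Plk2 had 8.56 in MGE WT repeat 2 and 10.25 to 10.97 in the other MGE arrays, and its difference was 0.09 without that array.

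**Figure D4:**
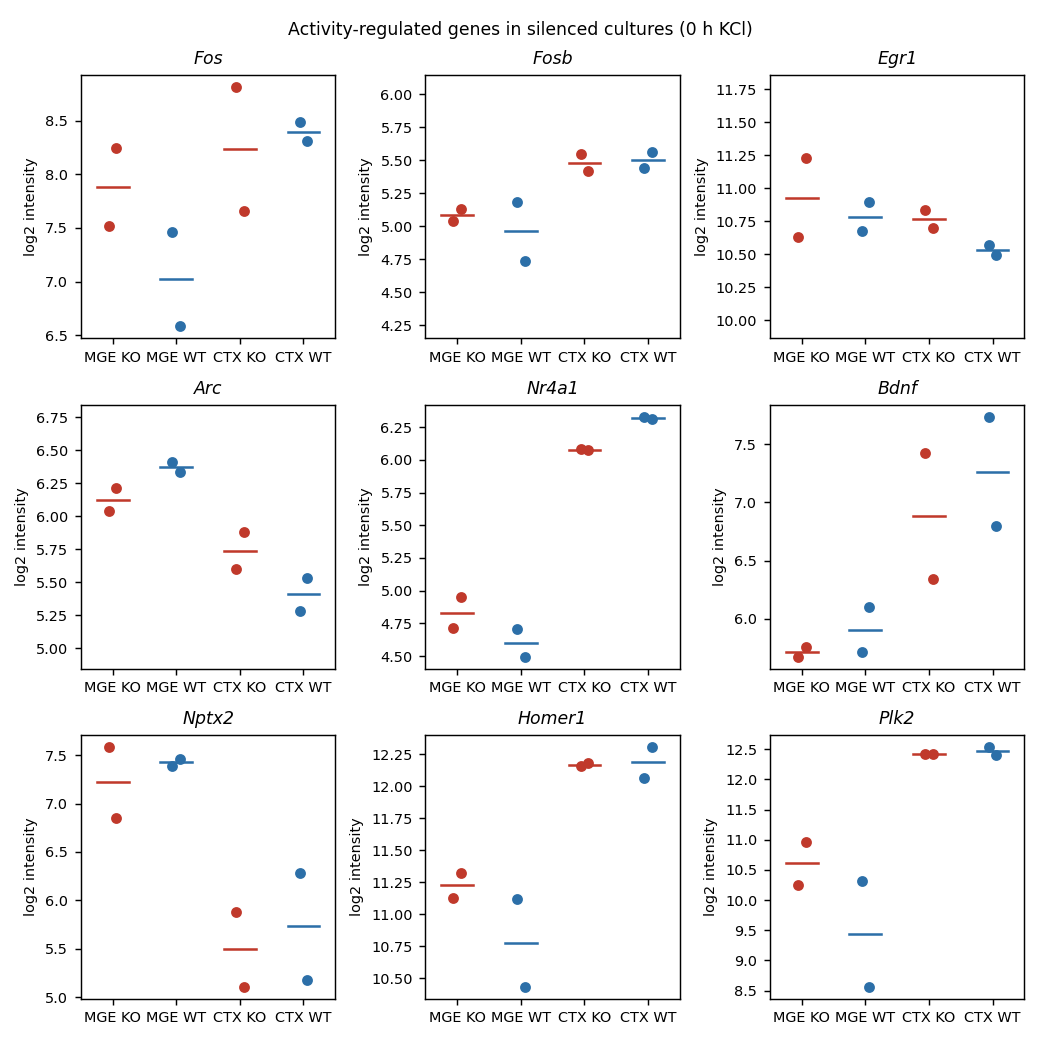
Log2 intensity of 9 activity-regulated genes in the 8 silenced arrays, with KO in red left of WT in blue for each culture, a point for each array and a bar for the mean of 2. No gene is called, and Plk2 is low in 1 MGE WT array. Bdnf and Nptx2 are lower in KO than in WT in each CTX repeat, a pattern not counted over all genes.

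The 18 negative feedback genes, mostly phosphatases and inhibitors that shut off growth factor signalling, had a median of 0.14 and 0 called. Spred2 differed by 0.85 ± 0.52 and Dusp6 by 0.80 ± 0.38, and without MGE WT repeat 2 they differed by 0.25 and 0.55. The 4 genes named as Npas4 targets in other studies had a median of 0.01. Of the 14 bHLH-PAS and clock genes, 0 were called and the median was 0.18, or 0.05 without MGE WT repeat 2. Arnt, a partner of Npas4, had 8.98 and 9.39 in MGE KO arrays, against 8.78 and 8.23 in MGE WT arrays. In CTX it had 9.37 and 9.65 in KO arrays and 9.46 and 9.66 in WT arrays, so the genotypes overlapped there. The other partner, Arnt2, was abundant in all 8 arrays and differed by -0.02 ± 0.08.

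Genes of neuronal function gave medians near that of all genes. Inhibitory transmission had a median of 0.08 over 14 genes, or -0.02 without MGE WT repeat 2, excitatory transmission 0.00 over 16, potassium channels 0.03 over 15, sodium and calcium channels 0.07 over 15, and synaptic vesicle machinery -0.01 over 16. Sst, the neuropeptide somatostatin, had 13.98 and 13.93 in MGE KO arrays and 13.94 and 13.63 in MGE WT arrays. Gad1 differed by 0.11 ± 0.13, Gad2 by 0.08 ± 0.08 and Slc32a1, the vesicular GABA transporter, by -0.11 ± 0.15. Gria1, a glutamate receptor subunit, had one of the smallest errors, at -0.20 ± 0.08, with an unadjusted p of 0.0389. Gabrd, a GABA receptor subunit, differed by -0.48 ± 0.24, or -0.22 without MGE WT repeat 2, and Slc17a7, a vesicular glutamate transporter, by -0.28 ± 0.17, or -0.15 without it. MGE interneuron markers had a median of 0.08 over 17 genes and cortical excitatory markers 0.01 over 13.

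Across the 33 lists, 422 genes were tested, 0 were called and 7 had an unadjusted p under 0.05, and medians ran from -0.24 to 0.18, apart from the erythroid list, whose 1 tested gene, Hba-a2, differed by 0.46, or 0.04 without MGE WT repeat 2. The lowest median, -0.24, was that of 15 genes of the Atf4 stress response, which cells raise when amino acids are short or proteins misfold, and 2 of the 15 were higher in KO. Chac1, which degrades glutathione, had 10.20 and 10.02 in MGE KO arrays and 10.14 and 10.77 in MGE WT arrays. In CTX it had 9.43 and 9.20 in KO arrays and 9.65 and 10.64 in WT arrays, so WT repeat 2 was the high array in both cell types. Trib3, a pseudokinase induced by Atf4, differed by -0.62 ± 0.29, or -0.34 without MGE WT repeat 2, and the list median was then -0.11. Within CTX the list median was -0.21, and within MGE it was -0.23, or -0.03 without MGE WT repeat 2.

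The 14 p53 target and cell death genes had a median of 0.11, with 0.31 in MGE and -0.02 in CTX, and 0.08 over both without MGE WT repeat 2. Pmaip1, a cell death activator also known as Noxa, had 8.48 and 9.83 in MGE KO arrays, against 7.75 and 7.09 in MGE WT arrays. In CTX cultures Pmaip1 had 10.82 and 10.35 in KO arrays and 10.75 and 10.46 in WT arrays, so the genotypes overlapped, and its difference over both was 0.86 ± 0.45, or 0.55 without MGE WT repeat 2. Housekeeping lists had medians of -0.01 over 12 cytosolic ribosomal proteins, -0.02 over 17 respiratory chain genes and -0.02 over 13 cholesterol synthesis genes. Interferon and antigen presentation had a median of -0.08 over 13 genes, and Ifi27, an interferon-induced gene, differed by -0.50 ± 0.17 with an unadjusted p of 0.0186, or by -0.33 without MGE WT repeat 2.

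The 30 genes on each side of Npas4 in RefSeq order were examined as a list. Of 49 tested, 0 were called, 9 were higher in KO and the median was -0.17, or -0.07 without MGE WT repeat 2. In CTX the median was -0.04 and in MGE -0.34. Ccdc87 and Actn3, a sarcomeric actinin, had the largest differences, at -0.44 ± 0.13 and -0.41 ± 0.16, and both had an unadjusted p under 0.05. Without MGE WT repeat 2 they differed by -0.39 and -0.29.

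Markers of other cell types varied between repeats as well as between genotypes. The mean log2 intensity of 9 astrocyte markers was 9.70 and 9.81 in MGE KO arrays and 9.44 and 9.89 in MGE WT arrays, and 9.43 and 8.59 in CTX KO arrays and 9.49 and 9.12 in CTX WT arrays. That of 8 microglia markers was 7.89 and 7.02 in MGE KO arrays and 8.01 and 7.51 in MGE WT arrays, and 6.92 and 6.89 in CTX KO arrays and 6.53 and 6.62 in CTX WT arrays. The microglia values thus overlapped between genotypes in MGE and not in CTX. The part of these cell types in the values of single genes was not tested.

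**Figure D5:**
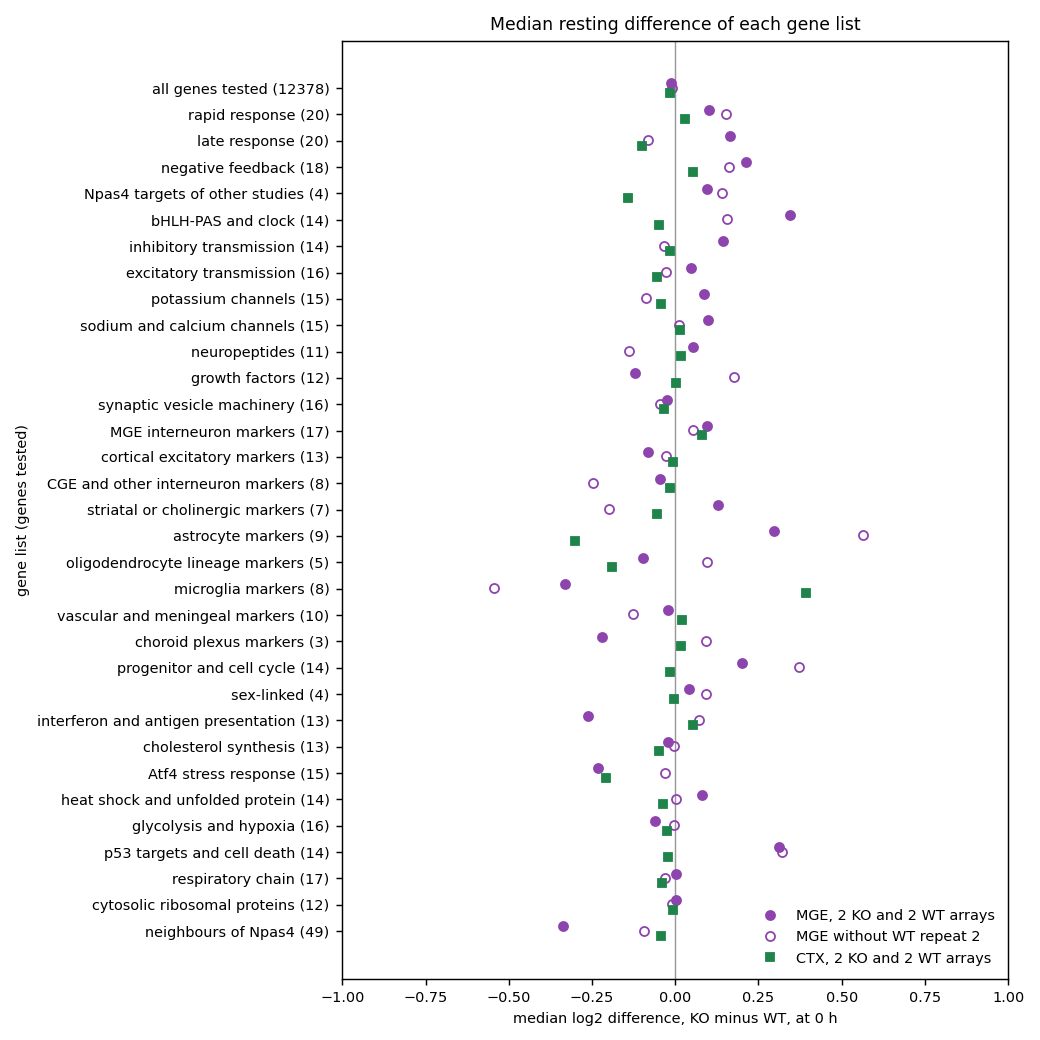
Median KO minus WT difference (log2) of each gene list with at least 3 genes tested in silenced cultures, in MGE (filled circles), MGE without WT repeat 2 (open circles) and CTX (squares), with the number of genes tested in brackets. CTX medians lie near 0 for most lists, and several MGE medians move when 1 array is left out, such as that of the Npas4 neighbours, which is -0.34 with it.

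The resting difference was then set against that after depolarization, by testing whether the KO minus WT difference changed with KCl over all 24 arrays. Between 0 and 1 h, 1 gene was called (0.00808%), Npas4, whose difference was lower by 4.60 ± 0.25 (change -4.60, adjusted p 2.6e-07). Between 0 and 6 h, 2 genes were called (0.0162%), Npas4 with a change of -2.85 ± 0.25 and Osgin2, an oxidative stress-induced growth inhibitor family gene, with -1.02 ± 0.14 (adjusted p 0.0247). Osgin2 at rest had 10.34 and 10.23 in MGE KO arrays and 10.41 and 10.32 in MGE WT arrays, and 10.42 and 10.59 in CTX KO arrays and 10.38 and 10.28 in CTX WT arrays. At 6 h it had 10.10 and 10.05 in MGE KO arrays, against 11.50 and 11.09 in MGE WT arrays, and 10.92 and 11.07 in CTX KO arrays, against 11.87 and 11.55 in CTX WT arrays. Its genotypes were close at rest and apart at 6 h, though the call was lost in 13 of 16 fits that left out 1 array.

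With one spread for all 24 arrays, limma called 0 genes between KO and WT at 0 h and 702 had an unadjusted p under 0.05. The same fit called 34 genes at 6 h (0.275%), all lower in KO. The 8 arrays at 6 h alone, fitted with cell type and genotype, called 0, with 702 at an unadjusted p under 0.05. That fit, the form used at rest, holds the difference equal in MGE and CTX. It left Npas4 uncalled at -3.01 ± 0.40 (adjusted p 0.184), with -2.02 in MGE and -4.00 in CTX. Of those 34 genes, limma with group means on the 8 arrays called Npas4 and Gli2 in CTX (adjusted p 0.0385 and 0.0439). Of those 34, the 33 other than Npas4 had a median KO minus WT difference of -0.79 at 6 h and -0.09 at rest, against -0.01 for all genes at rest. At rest 0 of the 33 were called. They were chosen at 6 h in a fit whose spread includes the resting arrays, so these values are a description.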

How the data were processed

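Messenger RNA was measured on Affymetrix mouse genome arrays from 100 ng of total RNA amplified with NuGEN Ovation V2, per the labels' protocols. The labels give 10 days in culture. The authors deposited linear intensity values for 45101 probe sets and 24 arrays, and RMA made them per the submitters' processing notes, which name no version. RMA gives arrays like distributions (array medians of the deposited intensity were 115 to 121), so a change common to most genes cannot be seen. The intensities were converted to log2 here. Of the probe sets, 34958 named 1 gene, 932 several and 9211 none. For each of 18194 genes the probe set of highest mean over the 24 arrays was used. Testing was limited to 12378 genes that exceeded the array median on 2 or more arrays.

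Differences were tested by limma 3.58.1 (R 4.3.3), with two-sided p-values adjusted by Benjamini-Hochberg over all 12378 genes and calls at an adjusted p under 0.05. The 8 silenced arrays were fitted with cell type and genotype, and with 4 group means for MGE, CTX and their difference. The group-mean fit shares a spread between MGE and CTX. Changes with depolarization used 12 group means over 24 arrays. Errors are SE of the fit. Precision is limited by the number of arrays. Probe sets with no single gene were tested separately.

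Repeat numbers were checked by correlating deviations from the group means between same-numbered arrays. In CTX all 15 pairs of groups correlated above 0.1 (0.11 to 0.71), and in MGE 13 of 15 did (-0.23 to 0.86). Both exceptions in MGE involved the silenced WT group, which holds the array that stood apart. The other MGE groups correlated at 0.26 to 0.86. Numbers were therefore taken to pair CTX arrays and not the silenced MGE arrays.

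Genes named were Npas4, called genes or else the 10 of lowest p in each direction (2 in each direction for MGE, CTX and their difference), the 2 largest of each list, and a set of fixed names, of which a selection is given. Members and lists were chosen with earlier results of these data known. Gene names and neighbours came from RefSeq (GRCm38.p6).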

Additional observations from a re-analysis of the deposited data

Results flagged for a closer look

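The difference between KO and WT cultures itself differed between silenced and depolarized arrays for 2 genes. For Npas4 the change from 0 to 1 h was -4.60 ± 0.25 (log2, adjusted p 2.6e-07 by limma over 24 arrays) and from 0 to 6 h -2.85 ± 0.25 (adjusted p 1.7e-04). For Osgin2 the change from 0 to 6 h was -1.02 ± 0.14 (adjusted p 0.0247).

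Probe sets that name no single gene lay outside the comparisons above. Of 10143 such probe sets 3641 were tested. When all 45101 probe sets were fitted together, 0 were called in MGE at rest. Among the 3641 alone, limma called 3 in MGE at rest, all lower in KO. It called 0 in CTX, over both cell types or for their difference. Without MGE WT repeat 2, which leaves 1 MGE WT array, the count in MGE was 0, with differences of -2.06, -1.81 and -1.97 in the order below. The first of these had 8.57 and 8.30 in MGE KO arrays, against 10.49 and 10.60 in MGE WT arrays, a difference of -2.11 ± 0.16 (adjusted p 0.0150). The second had 7.33 and 6.98 in MGE KO arrays and 8.96 and 9.43 in MGE WT arrays, and the third had 5.56 and 5.22 in KO and 7.36 and 7.38 in WT. Of the MGE and silenced CTX arrays, the third exceeded the array median only in MGE WT arrays at 0 and 1 h. As with Mup10, it was thus high enough for testing in MGE only on the side it was called lower than. At 1 h the first had 8.57 and 9.35 in MGE KO arrays and 10.64 and 11.06 in MGE WT arrays, and the second had 7.18 and 8.06 in KO and 9.42 and 9.70 in WT. The third had 5.71 and 5.92 in KO and 7.63 and 7.59 in WT at 1 h, so all 3 were again lower in KO arrays without overlap. At 6 h the first had 9.02 and 9.70 in MGE KO arrays and 9.08 and 9.45 in MGE WT arrays, so the genotypes overlapped. The second overlapped too at 6 h, with 7.41 and 8.17 in KO and 7.53 and 7.76 in WT, whereas the third had 6.53 and 6.38 in KO and 6.04 and 6.09 in WT, with KO above WT.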

How the results depend on the processing

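For both cell types together, 0 genes were called in all 21 alternatives, which were other fits, filters, normalizations, gene representations, the replicate block and leaving out each array, with 48 to 850 genes at an unadjusted p under 0.05. In MGE 0 genes were called in 21 of 22, and leaving out 1 array gave 0 to 3823, the highest without MGE WT repeat 1, which leaves the array that stood apart as the lone WT array. The interaction of cell type and genotype gave 0 to 1142 when 1 array was left out, the highest again without MGE WT repeat 1. In CTX the replicate block over 24 arrays called 2 genes, Crym and Pde1a, and leaving out 1 array gave 0 to 1, the 1 being Ttr without CTX KO repeat 2. A lone array is assumed to vary like the other groups. At 6 h the replicate block called 5 genes and the 24-array fit 34, and leaving out 1 array gave 0 to 6, the highest without CTX WT repeat 2. For the change from rest to 6 h the replicate block called 4, and leaving out 1 array gave 1 to 7. The block changed no call in the 8 silenced arrays, and the crossed block in MGE, added after seeing the data, called 0. At 1 h every alternative called 1 gene. Of 1292 values of single genes under alternatives, 1257 were counted as unchanged. Where called these kept call and sign, and where uncalled they stayed within the spread of the arrays. Uncalled values could still change sign, as Lhx6 kept its sign in 14 of 21 alternatives and Nr4a1 in 14 of 20. Another 13 shifted beyond that spread, 13 lost a call, all of them Osgin2, and 9 gained one. Of values called in either fit 0 changed sign, and of 672 list medians 5 moved. The cause was not tested. With 2 arrays in a group, small differences in MGE could not be resolved.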
